A study of Mus musculus with 2 samples.

Results

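The genes of 5 ligands and 5 receptors of the VEGF and angiopoietin systems were followed through the cells of the adult mouse stria vascularis (SV), the blood vessel-bearing epithelium of the cochlear lateral wall. The ligand genes were Vegfa, Vegfc, Pgf, Angpt1 and Angpt2, and the receptor genes Flt1, Kdr, Nrp1, Tek and Tie1. They were chosen by name, and all 10 were found by Ensembl identifier in both libraries, among 27040 genes that both libraries listed. The cells came from 2 reporter lines, each pooled from 10 mice of both sexes aged 1 to 3 months (20 cochleae) into 1 library made with a 10x Chromium 3′ kit. Tie2-GFP mice carry Tg(TIE2GFP)287Sato, in which the promoter of Tek (also named Tie2) drives GFP in endothelial cells (ECs), and NG2-DsRed mice carry Tg(Cspg4-DsRed.T1)1Akik, in which the promoter of Cspg4 drives DsRed in pericytes (PCs) and other cells that use it. The design text has the cells sorted on the reporter while the methods leave the sort to need, so Tek levels in the first line may be tied to the gate. The question asked of the data was which strial cell held the RNA of each ligand and which held the RNA of each receptor.

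In this system ligands and receptors usually sit on different cells. VEGF-A acts on ECs mainly through the kinase receptor encoded by Kdr, while the receptor encoded by Flt1 binds it tightly, signals weakly and also exists as a soluble trap. Placental growth factor, from Pgf, binds the Flt1 product and not the Kdr product, VEGF-C acts through the receptors encoded by Flt4 and Kdr, and neuropilin-1, from Nrp1, is a co-receptor. Angiopoietin-1, a product of perivascular cells in many tissues, activates the Tek receptor and steadies vessels, angiopoietin-2 can oppose it, and Tie1 encodes the partner receptor of Tek.

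The genes lie on 6 autosomes of the mouse genome (GRCm38), with Flt1 and Kdr on chromosome 5, Tek and Tie1 on chromosome 4, Vegfc, Nrp1 and Angpt2 on chromosome 8, Vegfa on chromosome 17, Pgf on chromosome 12 and Angpt1 on chromosome 15. Promoters are printed for 3 receptor genes whose RNA was largely limited to the endothelial class, and for Vegfa, whose highest levels were outside it. They are credited to RefSeq (GRCm38.p6), which had entries for 8 of the 10 genes, and read 5′ to 3′ on the strand of the gene, ending just before the start of transcription. In the 3 receptor promoters, capitals mark GGAA or its reverse complement TTCC, the core read by ETS factors. In the Vegfa promoter, capitals would mark the hypoxia response core (ACGTG or GCGTG, on either strand), of which this window holds none.
Flt1, chr5:147726012-147726261, minus strand, 250 bases.
Flt1: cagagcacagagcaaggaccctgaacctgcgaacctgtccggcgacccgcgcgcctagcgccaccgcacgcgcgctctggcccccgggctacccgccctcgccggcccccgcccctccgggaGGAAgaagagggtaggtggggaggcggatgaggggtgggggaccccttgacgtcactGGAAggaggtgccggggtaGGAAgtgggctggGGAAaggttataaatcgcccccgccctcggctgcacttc
Kdr, chr5:75978459-75978705, minus strand, 247 bases.
Kdr: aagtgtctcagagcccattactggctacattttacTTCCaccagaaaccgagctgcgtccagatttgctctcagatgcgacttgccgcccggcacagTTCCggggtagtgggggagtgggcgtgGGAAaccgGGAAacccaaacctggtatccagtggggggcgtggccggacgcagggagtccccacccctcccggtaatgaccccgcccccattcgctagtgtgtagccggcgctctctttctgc
Tek, chr4:94739039-94739288, plus strand, 250 bases.
Tek: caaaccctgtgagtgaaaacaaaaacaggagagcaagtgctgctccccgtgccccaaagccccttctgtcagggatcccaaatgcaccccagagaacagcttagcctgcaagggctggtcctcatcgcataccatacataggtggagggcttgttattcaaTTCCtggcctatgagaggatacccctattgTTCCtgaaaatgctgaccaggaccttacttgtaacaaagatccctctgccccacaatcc
Vegfa, chr17:46032378-46032627, minus strand, 250 bases.
Vegfa: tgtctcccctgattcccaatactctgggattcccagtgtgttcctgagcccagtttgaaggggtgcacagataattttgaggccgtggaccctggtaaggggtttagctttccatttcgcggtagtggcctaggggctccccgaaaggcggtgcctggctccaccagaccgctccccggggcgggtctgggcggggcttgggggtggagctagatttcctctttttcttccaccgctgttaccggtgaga
The ETS core occurred 4 times in the Flt1 promoter, 4 times in that of Kdr and 2 times in that of Tek. The printed Vegfa window, where it is not in capitals, held it 6 times, more than any of the 3 receptor promoters printed. The Tie1 promoter, not printed, held the ETS core 7 times, and a second RefSeq start of Vegfa held it 2 times. In turn the hypoxia response core, not in capitals there, occurred 1 time in the Flt1, 2 times in the Kdr and 0 times in the Tek promoter. Such short words are common: 93.4% of 32851 promoters, read over 250 bases, held the ETS core at least once. It occurred 2 or more times in 76.8% of them, 4 or more times in 33.4% and 6 or more times in 8.69%. The Kdr window, at 247 bases, is slightly shorter than these. The hypoxia response core was present in 38.6% of the 32851 promoters, and the second RefSeq start of Vegfa held this core 2 times. A match is a run of letters and was not tested as a binding site.

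Each cell barcode was placed by marker genes that are not among the 10. Endothelial cells carried UMIs of at least 4 of Pecam1, Cdh5, Cldn5, Egfl7, Ramp2 and Ly6c1, and mural cells (PCs and smooth muscle) at least 3 of Pdgfrb, Rgs5, Vtn and Notch3 with at most 1 endothelial marker. Intermediate cells, the melanocyte-derived cells of the SV, carried all of Dct, Tyr and Kcnj10, and marginal cells, the epithelial cells that face the endolymph, carried Kcne1 and Kcnq1. The Tie2-GFP library held 633 barcodes and 5432289 UMIs, which gave 374 endothelial, 84 intermediate, 26 marginal and 4 mural cells. The NG2-DsRed library held 201 barcodes and 1232599 UMIs, which gave 95 mural, 57 endothelial, 23 intermediate and 0 marginal cells. No barcode was shared by the libraries, 3 in each met more than 1 rule and were set aside, and 142 and 23 met none. Median depth ran from 3027 UMIs in mural cells to 16077.5 in the intermediate cells of the Tie2-GFP library, and median mitochondrial content from 1.81% in its endothelial cells to 17.9% in its marginal cells.

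Marker genes outside the rules were read in each class as a check of these names. All 7 endothelial reference genes were detected in the endothelial cells of both libraries, with a summed level of 5221 CPM (UMIs of a gene per 1000000 UMIs of the class) in the Tie2-GFP and 3695 CPM in the NG2-DsRed library, and 5 of them reached a sum of 173 CPM in mural cells. Intermediate cells held Gpnmb, Mlana and Met, but of the pigment gene Pmel only 1 UMI was found in each library. Ptgds, a prostaglandin synthase gene of the same list, was at 24523 CPM in intermediate and 73886 CPM in marginal cells of the Tie2-GFP library, so that the list of 5 genes summed to more in marginal cells (73906 against 28853 CPM). All 5 marginal reference genes were detected in marginal cells, at a sum of 11909 CPM against 3240 CPM in intermediate cells of that library, where Slc12a2, a chloride cotransporter gene, made up 3213 CPM. In the 95 mural cells the 6 mural reference genes summed to 4044 CPM, and the intermediate list to more, at 4498 CPM. Ptgds made up 4476 CPM of the latter, and 1433 of its 1450 UMIs lay in 1 cell. Atp13a5, a PC marker in brain, was at 0 UMIs in the 95 mural cells, which allows up to 9.26 CPM, and had 87 UMIs in marginal cells. In the NG2-DsRed library 41 of the 57 endothelial cells also carried at least 2 mural markers, against 32 of 374 in the Tie2-GFP library. Endothelial values below include them unless stated, and some are also given without them. With 1 library for each line there is no replicate, and no test between classes was run. Intervals are at the 95% level and hold only the error of counting, being exact Poisson ones for levels, Clopper-Pearson ones for shares of cells and binomial ones, conditional on the sum of both counts, for ratios. Where a gene was not counted in a class, the level of 3 counts is named as its limit. The kit counts 1 tag per RNA molecule near the 3′ end, so levels are not scaled by gene length and capture may differ between genes.

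Vegfa RNA, which encodes the main driver of vessel growth, was highest in intermediate and marginal cells. In the Tie2-GFP library its level was 168 CPM (146 to 192, 213 UMIs) in intermediate cells, 145 CPM (108 to 191, 50 UMIs) in marginal cells and 16.9 CPM (12.9 to 21.9, 58 UMIs) in ECs. The NG2-DsRed library gave 261 CPM (201 to 334, 64 UMIs) in intermediate cells, 21.6 CPM (8.69 to 44.5, 7 UMIs) in mural cells and 13.0 CPM (5.21 to 26.7, 7 UMIs) in ECs. Intermediate and marginal cells did not differ beyond counting error (log2 ratio 0.21, -0.24 to 0.68), nor did endothelial and mural cells (log2 ratio -0.74, -2.48 to 1.00), while the first pair lay above ECs in the library that held all 3. The intermediate cells exceeded ECs 9.90-fold (7.37 to 13.5) in the Tie2-GFP and 20.2-fold (9.24 to 52.1) in the NG2-DsRed library, and exceeded mural cells 12.1-fold (5.54 to 31.3). Vegfa was found in 70.2% of the 84 intermediate cells, against 10.7% of the 374 ECs. At an equal depth of 2000 UMIs per cell those shares would be 24.8% and 2.70%, in the same order. A single cell held at most 30 Vegfa UMIs, and the median intermediate cell held 2 in either library. Under the study's own limits on depth and mitochondrial content, which 6 of the 84 intermediate cells pass, the level was 107 CPM from 12 UMIs. Only 1 of the 26 marginal cells passes these limits, so the marginal level rests almost wholly on cells outside them.

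RNA of other cells was measured beside the low endothelial values of Vegfa. Dct, the strongest intermediate marker, was at 30373 CPM in intermediate cells and 17.5 CPM in ECs of the Tie2-GFP library. Intermediate cells held 38609 Dct UMIs beside 213 of Vegfa, and ECs held 60 beside 58. The part of RNA from other cells in the endothelial Vegfa values was not tested.

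Vegfc, whose product drives lymphatic and some blood vessel growth, was the one ligand with more RNA in ECs than in mural cells of the NG2-DsRed library. Its level in ECs was 24.5 CPM (19.6 to 30.4, 84 UMIs) in the Tie2-GFP and 57.4 CPM (39.0 to 81.5, 31 UMIs) in the NG2-DsRed library, whereas mural cells had 1 UMI (3.09 CPM, 0.0782 to 17.2). Few ECs carried it, at 9.09% of 374 and 19.3% of 57. The 84 UMIs of the Tie2-GFP library lay in 34 cells, of which 10 held 3 or more and the highest held 12. Intermediate cells were at 15.7 CPM (9.61 to 24.3) and 28.6 CPM (11.5 to 58.9), and marginal cells at 23.2 CPM (10.0 to 45.7), so within either library the endothelial, intermediate and marginal intervals overlapped.

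Pgf, which encodes a ligand of the Flt1 receptor, had its highest level in mural cells. The level there was 222 CPM (174 to 280, 72 UMIs), with UMIs in 41.1% (31.1 to 51.6) of the 95 cells and a share of 31.3% expected at 2000 UMIs per cell. ECs of the same library had 33.3 CPM (19.8 to 52.7, 18 UMIs), and ECs of the Tie2-GFP library had 3.21 CPM (1.60 to 5.75, 11 UMIs). No Pgf UMI was found in intermediate cells of either library or in marginal cells, which allows up to 2.36 CPM in the 84 intermediate cells of the Tie2-GFP library. The 4 mural cells of that library held 3 Pgf UMIs among 12355.

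The angiopoietins were scarce. Angpt1, the activating ligand of Tek, was counted 9 times in 95 mural cells (27.8 CPM, 12.7 to 52.7), 8 times in the 57 ECs of that library (14.8 CPM, 6.40 to 29.2) and 5 times in the 374 ECs of the Tie2-GFP library (1.46 CPM, 0.474 to 3.41). It was at 0 in intermediate and marginal cells, and its share of 7.37% of mural cells would be 5.83% at 2000 UMIs. Angpt2, which can block Tek, was at 86.4 CPM (57.4 to 125, 28 UMIs) in mural cells, 7.41 CPM (2.02 to 19.0, 4 UMIs) in the ECs of the same library and 29.5 CPM (24.0 to 35.8, 101 UMIs) in the ECs of the Tie2-GFP library. Mural cells of the NG2-DsRed library lay above its ECs for both ligands, but for Angpt1 the interval of the log2 ratio of ECs to mural cells ran from -2.48 to 0.64. Among the 374 ECs of the Tie2-GFP library 55 held Angpt2, and the 38 highest held 83.2% of its UMIs.

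**Figure D1:**
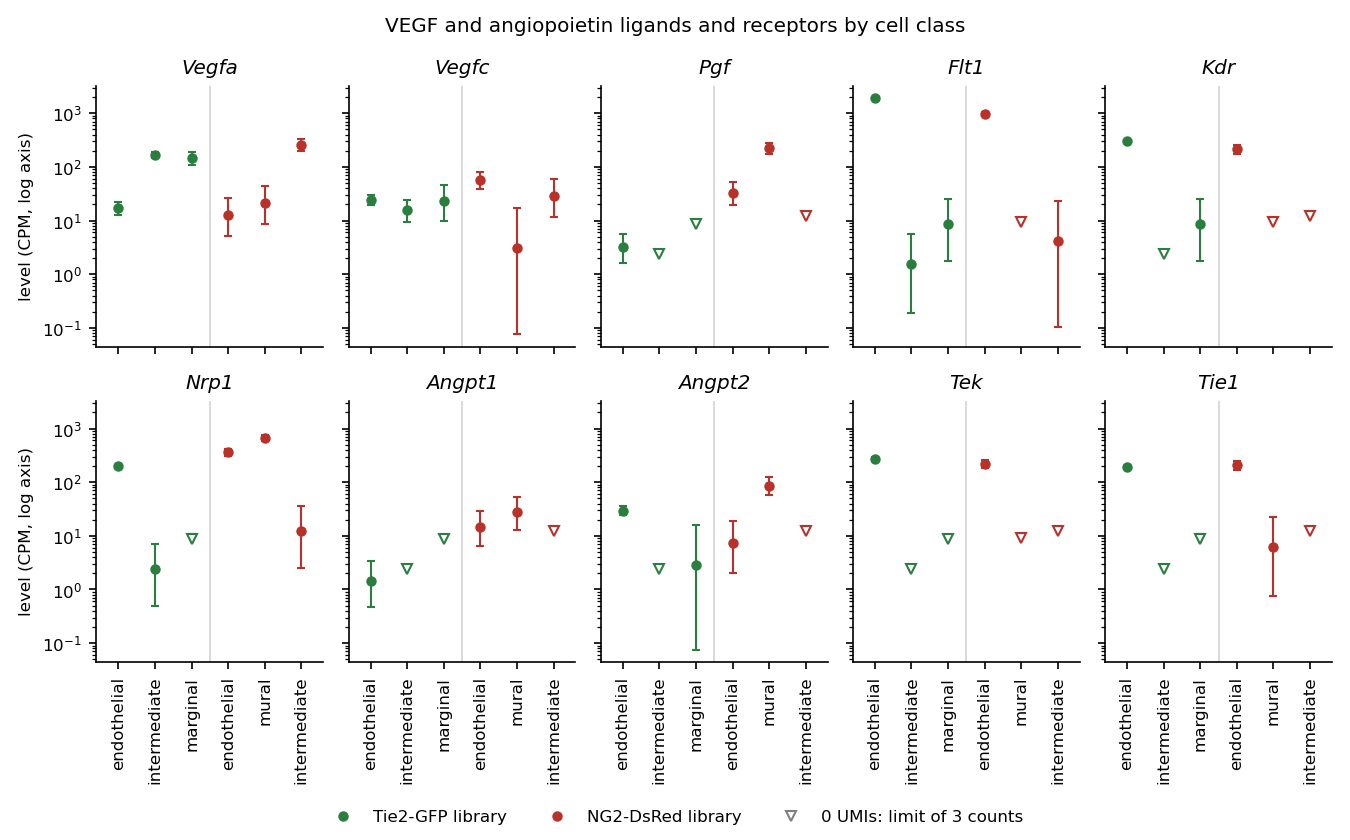
Level of each ligand and receptor gene (CPM, log axis) in each class of cells with at least 20 cells, in green for the Tie2-GFP and red for the NG2-DsRed library; points are levels with exact Poisson 95% intervals and open triangles mark classes with 0 UMIs at the limit of 3 counts. Vegfa was highest in intermediate and marginal cells, Pgf and Nrp1 in mural cells, and Flt1, Kdr, Tek and Tie1 in endothelial cells.

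Flt1 was the receptor gene with the most UMIs, nearly all of them in ECs. It reached 1893 CPM (1847 to 1939, 6484 UMIs) in the Tie2-GFP and 959 CPM (879 to 1046, 518 UMIs) in the NG2-DsRed library, with UMIs in 98.9% and 98.2% of ECs. Mural cells held 0 UMIs, which allows up to 9.26 CPM and up to 3.16% of the 95 cells with a UMI. That share is no limit on the cells that use the gene, at a median of 3027 UMIs per cell. The 84 intermediate cells held 2. Counts summed per gene do not separate the soluble from the membrane-bound form. Flt1 stayed the most widely detected of the 10 genes after thinning to 2000 UMIs, at 92.4% and 81.2% of ECs. The highest EC held 85 Flt1 UMIs against a median of 14.

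Kdr, the main signalling receptor for VEGF-A, followed the same division of cells at a lower level. ECs had 300 CPM (281 to 318, 1026 UMIs) and 213 CPM (176 to 256, 115 UMIs), with UMIs in 80.2% and 70.2% of cells. Mural cells and the intermediate cells of both libraries held 0, and the 26 marginal cells held 3 in 2 cells, as they did for Flt1. The 0 in 84 intermediate cells allows a share of cells with a UMI of up to 3.57%. In the same library Kdr UMIs were present in 7.69% of marginal cells and in 6.34% of the 142 barcodes that met no class rule.

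Tek and Tie1, the angiopoietin receptor and its partner, were likewise endothelial. Tek was at 276 CPM (259 to 294, 945 UMIs) in ECs of the Tie2-GFP library, where its promoter drives the reporter, and at 219 CPM (181 to 262, 118 UMIs) in ECs of the NG2-DsRed library, where it does not. UMIs were present in 78.6% and 71.9% of these cells, or 40.6% and 32.4% at 2000 UMIs. No Tek UMI was found in mural, intermediate or marginal cells of either library. Tie1 was at 189 CPM (174 to 204, 646 UMIs) and 207 CPM (171 to 250, 112 UMIs) in ECs, with 2 UMIs in mural cells (6.17 CPM, 0.748 to 22.3) and 0 elsewhere. For Tie1 the intervals of the 2 libraries overlapped, and for Tek they did so narrowly.

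Nrp1, the co-receptor, broke this pattern. Mural cells had 664 CPM (578 to 759, 215 UMIs) with UMIs in 80.0% of cells, ECs of the same library had 361 CPM (312 to 416, 195 UMIs) with 82.5%, and ECs of the Tie2-GFP library had 196 CPM (182 to 212, 673 UMIs) with 61.5%. Thinned to 2000 UMIs the shares were 67.3%, 46.9% and 28.4%, an order that follows the levels and not the unthinned shares. Intermediate cells held 3 UMIs in each library (2.36 and 12.2 CPM) and marginal cells 0. Nrp1 was thus the only one of the 5 receptor genes with over 2 UMIs in mural cells.

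**Figure D2:**
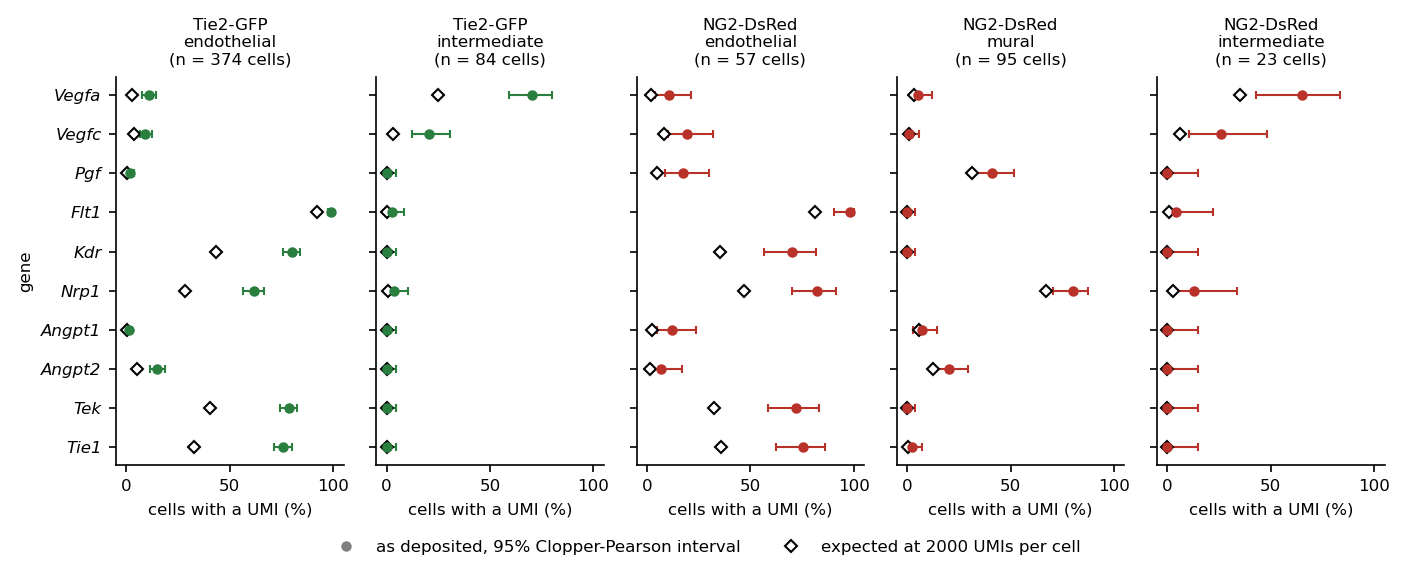
Share of cells with at least 1 UMI of each gene (percent) in 5 classes; filled points are the deposited counts with Clopper-Pearson 95% intervals and open diamonds the share expected when every cell is thinned to 2000 UMIs. Flt1 remained at 92.4% of ECs of the Tie2-GFP library after thinning, Vegfa in its intermediate cells went from 70.2% to 24.8%, and Nrp1 in mural cells went from 80.0% to 67.3%.

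The endothelial levels were also set side by side across the libraries, which differ in reporter line, batch and counting software, so these cannot be told apart. The Tie2-GFP value was 1.97 times the NG2-DsRed value for Flt1, 1.41 times for Kdr, 1.26 times for Tek and 0.909 times for Tie1. Among the ligands it was 1.31 times for Vegfa, 0.427 times for Vegfc, 0.0963 times for Pgf and 0.0985 times for Angpt1. Nrp1 was at 0.544 times. Angpt2 was at 3.98 times, against only 4 UMIs in the NG2-DsRed library. The libraries also differed in mural marker RNA in these cells: the 6 mural reference genes summed to 171 CPM in Tie2-GFP ECs and 919 CPM in NG2-DsRed ECs, beside 4044 CPM in mural cells. Erythroid RNA differed too, at 2686 CPM over 3 genes in Tie2-GFP ECs and 22.2 CPM in NG2-DsRed ECs. The part of either in the member values was not tested.

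Within the NG2-DsRed library, ECs were compared with mural cells over all genes with at least 20 UMIs in the 2 classes. Of the 8 members that met this count, 5 (Vegfc, Flt1, Kdr, Tek and Tie1) were at least 4-fold higher in ECs, as were 6.25% of the 6399 genes compared. Another 2 (Pgf and Angpt2) were at least 4-fold lower in ECs, against 5.3% of all genes, and Nrp1 was within 4-fold. Vegfa and Angpt1 had too few UMIs for this count. The 5 higher members met it through ECs, with at most 2 UMIs each in mural cells. A gene that meets it through 1 class alone is past 4-fold almost by construction, so the 5 of 8 only describes placing. Against the 3-count limit in mural cells, Flt1 was at least 104-fold, Tek at least 23.6-fold and Kdr at least 23.0-fold higher in ECs. Tie1 was 33.6-fold higher (9.09 to 281, on 2 mural UMIs). The mural rule allows at most 1 endothelial marker, while the endothelial rule sets no limit on mural markers. Barcodes with more than 1 endothelial marker were thus kept out of the mural class. In this library 6 with at least 3 mural and 2 or 3 endothelial markers fell in neither class. The part of this rule in the low mural counts of these receptors was not tested. Pgf was 6.67-fold (3.93 to 11.9), Angpt2 11.7-fold (4.08 to 45.8) and Nrp1 1.84-fold (1.51 to 2.24) higher in mural cells. The median log2 ratio of all genes compared was -0.11.

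The ECs that also carried mural markers held most of the Pgf and Angpt1 RNA counted in ECs. In the NG2-DsRed library all 18 Pgf, 8 Angpt1, 7 Vegfa and 4 Angpt2 UMIs of the endothelial class lay in the 41 such cells, and 0 lay in the other 16. Those 16 cells are few, and a count of 0 there allows up to the level of 3 UMIs. For Vegfa, Angpt1 and Angpt2 that limit lies above the level in all 57 ECs (13.0, 14.8 and 7.41 CPM), so their 0 does not set the 16 cells apart. The marked cells also held more UMIs per cell than the other ECs in both libraries, so their share of all UMIs exceeds their share of cells. In the Tie2-GFP library 9 of the 11 Pgf UMIs and all 5 Angpt1 UMIs lay in 32 of the 374 ECs, which held 13 of 58 Vegfa and 22 of 101 Angpt2 UMIs. Vegfc RNA was also counted in the ECs with at most 1 mural marker, at 78.5 CPM beside 51.7 CPM in the marked ECs of the NG2-DsRed library (9 and 22 UMIs) and at 26.7 beside 12.9 CPM in the Tie2-GFP library (77 and 7 UMIs). The intervals of both ratios included 1. Among the receptors, Flt1 was at 924 CPM with and 1091 CPM without the mural markers in the NG2-DsRed library, and at 1662 and 1936 CPM in the Tie2-GFP library. For Nrp1 the NG2-DsRed values were 400 and 218 CPM, so that without these cells mural cells exceeded ECs 3.04-fold (2.01 to 4.81) in place of 1.84-fold. The part of mural RNA in the endothelial values was not tested.

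**Figure D3:**
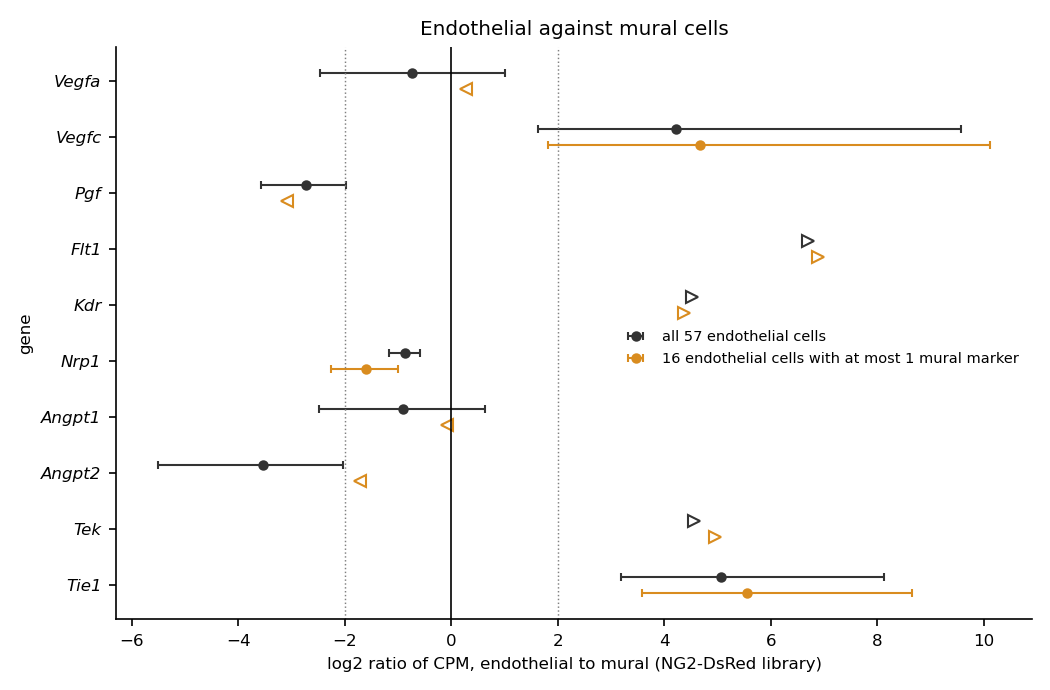
Log2 ratio of the level in endothelial to that in mural cells of the NG2-DsRed library for each gene, in black for all 57 endothelial cells and in orange for the 16 with at most 1 mural marker; bars are exact 95% intervals, open triangles are bounds from the 3-count limit where a class held 0 UMIs, and dotted lines mark a 4-fold ratio. Flt1, Kdr, Tek, Tie1 and Vegfc lie to the right and Pgf, Nrp1 and Angpt2 to the left.

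Intermediate and marginal cells of the Tie2-GFP library were set against its ECs in the same way. In intermediate cells 1 of 8 members with at least 20 UMIs, Vegfa, was at least 4-fold higher, as were 8.18% of 10466 genes, and 6 (Flt1, Kdr, Nrp1, Angpt2, Tek and Tie1) were at least 4-fold lower, as were 16.1% of genes. Marginal cells gave the same 1 and 6 genes, against 8.67% and 20.4% of 9957 genes. The 6 lower members met the count through ECs, with at most 3 UMIs each in intermediate or in marginal cells. Their number past 4-fold therefore only describes placing. The log2 ratio of intermediate cells to ECs was -10.23 for Flt1 (-13.28 to -8.38) and -6.38 for Nrp1 (-8.66 to -4.83). Tek was at least 117-fold and Kdr at least 127-fold lower in intermediate cells. The median log2 ratio over all genes compared was -0.15 for intermediate and -0.25 for marginal cells. The NG2-DsRed library, which did not enter this count, gave a log2 ratio of intermediate cells to ECs of 4.33 for Vegfa (3.21 to 5.70) and -7.88 for Flt1 (-13.18 to -5.39).

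Ligand RNA also varied within the mural class, which was divided by contractile genes. The 40 contractile-marked cells carried at least 2 of Acta2, Tagln and Myh11, and the 50 K-ATP-marked cells carried Kcnj8 or Abcc9, subunits of a potassium channel of PCs, with at most 1 contractile gene. Pgf was at 278 CPM (49 UMIs, 62.5% of cells) in the contractile-marked and 124 CPM (17 UMIs, 24.0%) in the K-ATP-marked cells, a log2 ratio of 1.16 (0.34 to 2.05). Angpt2 went the same way, at 125 against 36.6 CPM (log2 ratio 1.77, 0.33 to 3.53). Nrp1 was lower in the contractile-marked cells, with 482 CPM beside 878 CPM and a log2 ratio of -0.86 (-1.28 to -0.45). Angpt1 had 5 and 3 UMIs, too few to order. The 5 mural cells that were neither had Pgf at 547 CPM (201 to 1191), from 6 UMIs of which 5 lay in 1 cell. Their Nrp1 level was 912 CPM (437 to 1677, 10 UMIs). The division rests on which markers were detected, and many cells lay near its limits: 17 contractile-marked cells had exactly 2 of the genes, 15 K-ATP-marked cells had 1, and 19 contractile-marked cells also carried a channel gene. With all 3 contractile genes set against none, Nrp1 was 3.74-fold lower in the contractile-marked cells. Median depth was 3749 UMIs in the contractile-marked and 2603.5 in the K-ATP-marked cells, and at 2000 UMIs the Pgf shares would be 40.3% and 20.0%.

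ECs of the Tie2-GFP library were divided by arterial genes (Gja4, Gja5, Bmx, Sema3g, Efnb2 and Hey1) and venous genes (Nr2f2, Slc38a5, Vcam1, Ackr1 and Ephb4). The 173 arterial-marked and 52 venous-marked ECs carried at least 2 genes of their list and more than of the other, and 149 were neither. The venous list did not move as a whole, since Vcam1 was at 57.1 CPM in arterial-marked and 29.0 CPM in venous-marked ECs and Ackr1 had 0 UMIs. Vegfc was the member that differed most, with 74 UMIs (41.4 CPM) in the arterial-marked and 1 UMI (1.81 CPM) in the venous-marked ECs, a log2 ratio of 4.52 (1.99 to 9.84), and 8.29 CPM in the ECs that were neither. Most arterial-marked ECs held none: the 74 UMIs lay in 27 cells (15.6%, 10.5 to 21.9), with up to 12 in 1 cell. The share of venous-marked ECs with Vegfc was 1.92% (0.0487 to 10.3). Nrp1, known from arterial endothelium, was at 238 against 159 CPM (log2 ratio 0.58, 0.25 to 0.93), and Flt1 at 1990 against 1712 CPM (log2 ratio 0.22, 0.11 to 0.32). For Kdr (log2 ratio 0.19, -0.07 to 0.47), Tek (-0.15, -0.40 to 0.10), Tie1 (-0.12, -0.44 to 0.21), Angpt2 and Vegfa the interval included 0. The ECs that were neither had the highest Angpt2 level, at 46.0 CPM (34.2 to 60.7) beside 23.5 CPM (16.9 to 31.8) in arterial-marked and 16.3 CPM (7.45 to 30.9) in venous-marked ECs. The share of cells with Angpt2 was alike, at 15.4% in the ECs that were neither and 15.6% in arterial-marked ECs. In the former its 50 UMIs lay in 23 cells, with up to 9 in 1 cell. Their median depth was 6658 UMIs, beside 8421 in arterial-marked and 9659 in venous-marked ECs. They include 21 ECs with equal numbers, at least 2, of arterial and venous genes. Here too many cells lay near the limits of the marking: 83 arterial-marked ECs had exactly 2 arterial genes and 104 also carried a venous gene.

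**Figure D4:**
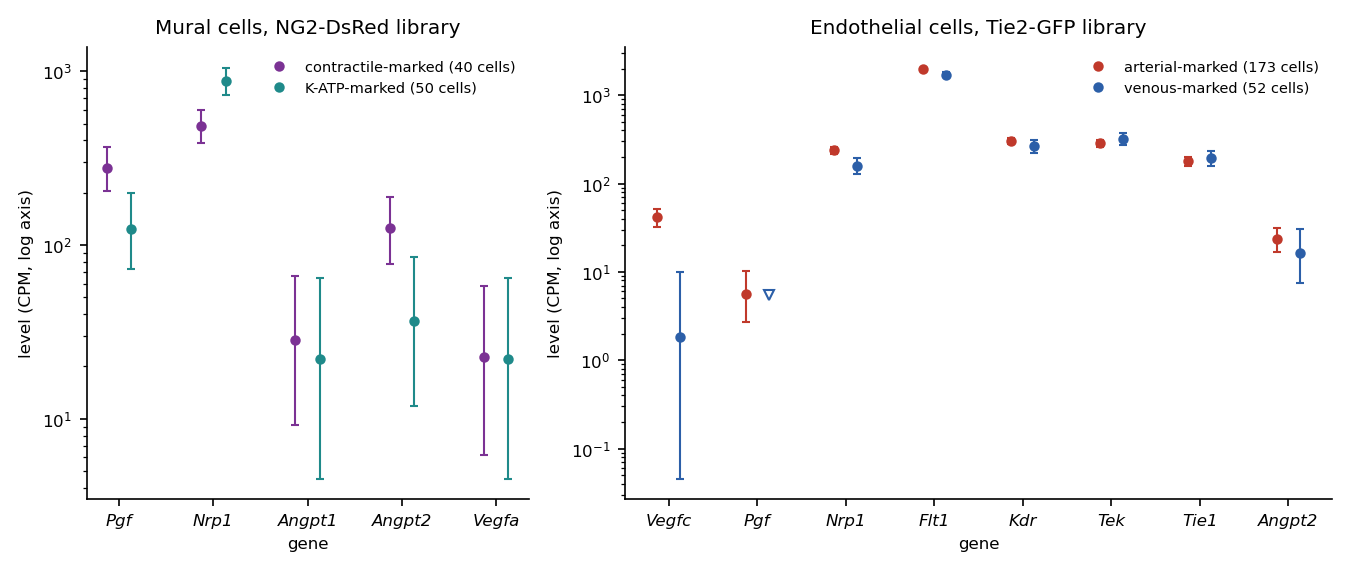
Levels (CPM, log axis) with exact Poisson 95% intervals, on the left in contractile-marked and K-ATP-marked mural cells and on the right in arterial-marked and venous-marked endothelial cells; the open triangle marks 0 UMIs at the limit of 3 counts. Pgf and Angpt2 were higher and Nrp1 lower in contractile-marked cells, and Vegfc was at 41.4 CPM in arterial-marked against 1.81 CPM in venous-marked cells.

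Receptors were detected together in single ECs. All 4 of Flt1, Kdr, Tek and Tie1 had UMIs in 51.6% (46.4 to 56.8) of 374 ECs of the Tie2-GFP library and in 43.9% (30.7 to 57.6) of 57 ECs of the NG2-DsRed library. Only 2 of 374 and 1 of 57 had none. Depth moved with the count of receptors: the 193 Tie2-GFP ECs with all 4 had a median of 9710 UMIs and the 41 with 2 of them 5313. At 2000 UMIs the share with all 4 would be 5.54% and 4.55%, and the share with Flt1 and Kdr 41.1% and 29.2%. Kdr and Nrp1, receptor and co-receptor for VEGF-A, were found together in 52.9% and 56.1% of ECs, or 13.7% and 13.9% at 2000 UMIs. The NG2-DsRed shares include the 41 ECs with at least 2 mural markers. Whether any of these genes occurred together more often than their single shares give was not tested.

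A list of 26 other genes of the pathway gave the surroundings of these values. Of 12 list genes with at least 20 UMIs in the NG2-DsRed comparison, 4 were at least 4-fold higher in ECs than in mural cells, as were 6.25% of all genes compared, and 0 were at least 4-fold lower, as were 5.3% of all genes. They were Nrp2 (194 against 34.0 CPM), a co-receptor for VEGF-C, Ptprb (724 against 9.26 CPM), a phosphatase that turns down Tek, Nos3 (57.4 against 3.09 CPM), the endothelial nitric oxide synthase, and Dll4 (79.6 CPM against 0 UMIs), a Notch ligand of sprouting cells. The median log2 ratio of the 12 was 1.02, beside -0.11 for all genes compared. The list was chosen with earlier results of these data known, and Ptprb is also among the endothelial reference genes. Dll4, Nos3 and Ptprb met the count through ECs. The median therefore depends on the choice of genes and is no separate result.

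The same list was read in intermediate cells. Of 20 list genes compared in the Tie2-GFP library, 3 were at least 4-fold higher in intermediate cells than in ECs, against 8.18% of all genes compared, and 11 were at least 4-fold lower, against 16.1%. The median log2 ratio of the 20 was -3.07, beside -0.15 for all genes. This median, too, depends on the choice of the listed genes. The 3 were Vegfb, a ligand of the Flt1 receptor (390 against 37.1 CPM), Adm, the vasodilator peptide gene adrenomedullin (421 against 38.8 CPM), and Hif1a, which encodes the oxygen-sensitive subunit of a hypoxia factor (1167 against 285 CPM). All 3 were also high in the intermediate cells of the NG2-DsRed library, at 347, 845 and 976 CPM. Adm was at 0 UMIs in marginal cells, where Vegfb was at 200 CPM and Hif1a at 189 CPM. Epas1, which encodes the related hypoxia subunit of endothelium, had the opposite placing, at 689 and 670 CPM in ECs, 756 CPM in mural cells and 11.0 CPM in the intermediate cells of the Tie2-GFP library.

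The 11 genes lower in intermediate cells were Vegfd, Flt4, Ptprb, Nos3, Rcan1, Apln, Aplnr, Dll4, Pdgfb, Unc5b and Epas1. Flt4, the VEGF-C receptor gene, was at 50.8 CPM (174 UMIs) in Tie2-GFP ECs and 31.5 CPM (17 UMIs) in NG2-DsRed ECs, with 0 UMIs in mural and Tie2-GFP intermediate cells. Pdgfb, a growth factor by which ECs recruit PCs, was at 219 and 161 CPM in ECs and 40.1 CPM in mural cells. Nrp2 differed from Nrp1 in its placing, at 1051 and 690 CPM in intermediate cells, 346 and 194 CPM in ECs and 34.0 CPM in mural cells. Kcne3 and Sh2d2a had 0 UMIs in every class, Esm1, a tip cell gene, had 2 UMIs in ECs, and Cxcr4 had 9 and 3.

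**Figure D5:**
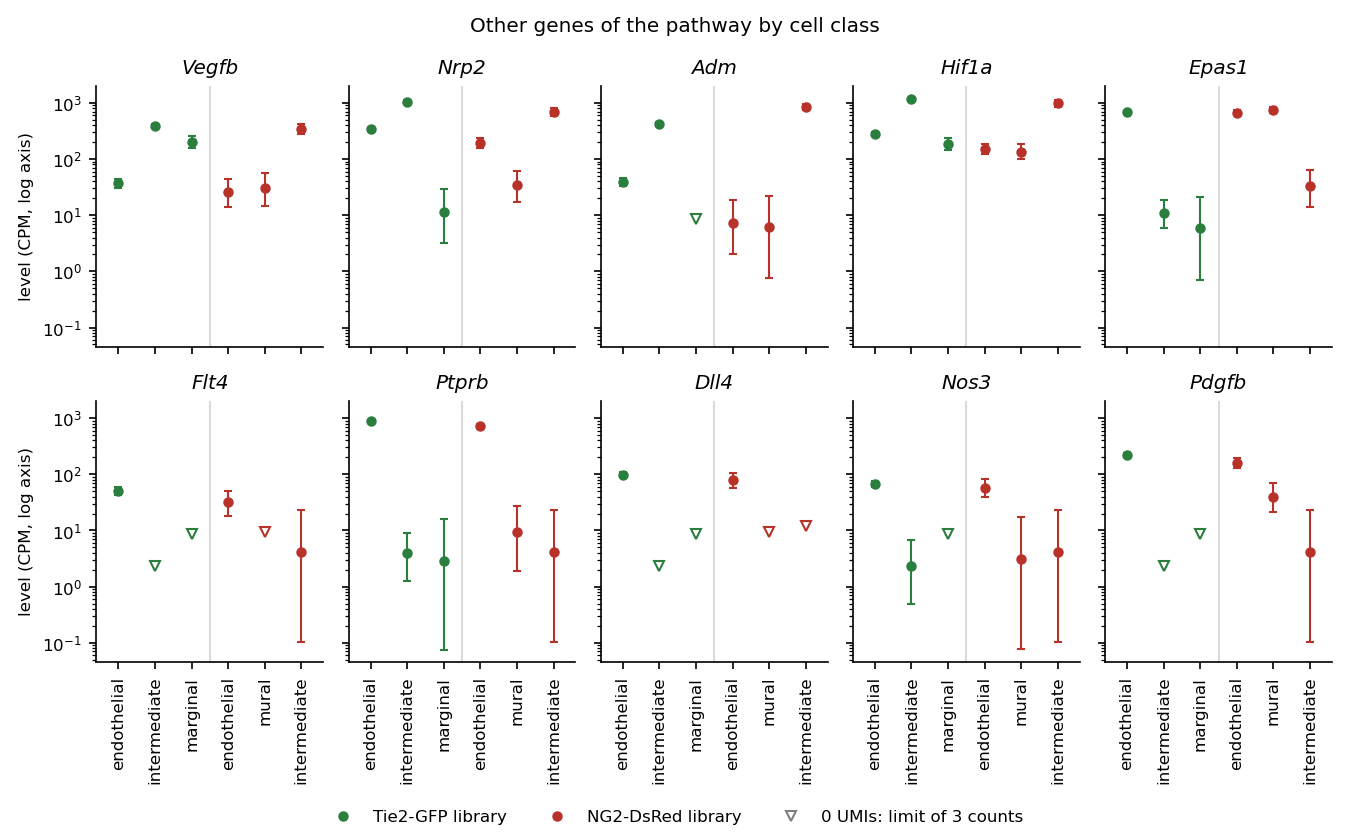
Level of 10 further genes of the pathway (CPM, log axis) in each class of cells, in green for the Tie2-GFP and red for the NG2-DsRed library, with exact Poisson 95% intervals and open triangles for 0 UMIs at the limit of 3 counts. Vegfb, Nrp2, Adm and Hif1a were highest in intermediate cells, Epas1 in endothelial and mural cells, and Flt4, Ptprb, Dll4, Nos3 and Pdgfb in endothelial cells.

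For 9 members with at least 100 UMIs, the genes of most similar level were sought among 4828 genes over the 6 class-by-library profiles, which share libraries and depth. Vegfa was nearest to Qpct, Sox10, a neural crest factor of melanocytes, and Eno1, a glycolysis enzyme (Pearson r 0.996, 0.994 and 0.994, on log2(CPM + 10)). Pgf was nearest to Myh11, the smooth muscle myosin, Ednra, an endothelin receptor, and Pcdh18 (r 0.999, 0.997 and 0.997). Flt1 and Kdr shared Grap as a neighbour, and Kdr was nearest to Edn1, the endothelin-1 gene. Tek was nearest to Gimap5, Mfng and Robo4, and Tie1 to Npr1, Hspa12b and Iws1. Nrp1 had Cnn2, Amotl1 and Gng11, and Angpt2 had Cdc37, Smg1 and Zfp638. Vegfc had the least close neighbours, Idnk, Jup and Bst2 (r 0.952, 0.947 and 0.945). With 6 profiles many genes reach such values, and they are given as descriptions of placing.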

How the data were processed

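Single-cell libraries of the SV were compared, 1 from Tie2-GFP and 1 from NG2-DsRed mice. The authors deposited UMI counts per gene and barcode, not normalized. The matrix headers name Cell Ranger 7.0.0 (Tie2-GFP) and software version 3.0.0 (NG2-DsRed), and the labels name bcl2fastq 2.20.0.422 and build mm10. Whether intronic reads were counted is not given in the sources used here. Libraries were prepared as separate batches.

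The members, marker lists and gene lists were chosen with earlier results of these data known. All deposited barcodes were used, because the study's mitochondrial limit of 5% removes most intermediate and marginal cells, and no doublet caller was run. Members were matched by Ensembl ID. CPM was computed from summed UMIs, and shares at 2000 UMIs are expected values over all draws, with shallower cells left out (18 mural, 12 Tie2-GFP endothelial, 2 Tie2-GFP intermediate and 1 NG2-DsRed intermediate cell). Calls past 4-fold used a prior count of 0.5 and genes with at least 20 UMIs in both classes together. Beside the members, the text names the 3 genes most alike to each member, and list genes past 4-fold, by a fixed rule. Esm1, Cxcr4, Kcne3 and Sh2d2a were named after their values were seen. The ratio, its interval, the 4-fold call and the thinning were tried on simulated counts. Class sums were drawn there with Poisson error and no further spread between cells, so the intervals were not tested against such spread. Alternatives changed the barcodes, class rules, weights, denominator, depth, UMI minimum and fold. Python 3.11.15, numpy 2.4.6, scipy 1.17.1, pandas 2.3.3 and matplotlib 3.10.9 were used, with gene positions from GENCODE M21.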

Additional observations from a re-analysis of the deposited data

Results flagged for a closer look

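Barcodes that met no class rule entered no comparison above apart from the share with Kdr, and 11 counts of member genes in them exceeded the 3 counts that serve as the limit. In the 142 such barcodes of the Tie2-GFP library (median 1384 UMIs, of which a median of 81.7% were mitochondrial) there were 38 UMIs of Vegfa, 85 of Flt1, 20 of Nrp1, 13 of Kdr, 11 of Tek and 8 of Tie1. Only 14 of these barcodes held Vegfa and 16 held Flt1, so the UMIs lay in few of them. In the 23 such barcodes of the NG2-DsRed library (median 1301 UMIs) there were 15 UMIs of Nrp1, 7 of Vegfa, 6 of Pgf, 5 of Tek and 4 of Flt1.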

How the results depend on the processing

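Levels and ratios were recomputed with the study's limits on cells, with cells of several classes kept, with ECs of at most 1 mural marker, with stricter classes, with equal weights of cells, with another denominator, and with 2 further choices made after seeing the data (no mitochondrial genes in the denominator, and stricter marking within mural cells and ECs). Of 70 recomputed levels of the 10 genes, each in 1 class, 67 stayed inside the 95% interval. For Nrp1 and Angpt2 that class was the Tie2-GFP ECs, not the mural cells, where both were higher. Not all 70 could differ from the main value. Keeping cells of several classes changed neither the Tie2-GFP ECs nor the mural cells, and the mural marker limit acts on ECs only. None of 249 recomputed ratios turned a direction whose interval had excluded 0. The 249 also hold ratios whose interval included 0, which could not count as turned, and settings that left the cells unchanged. Ratios with 0 UMIs in a class were left out of the 249, such as those of Flt1, Kdr and Tek between ECs and mural cells. Under the study's limits Vegfa in Tie2-GFP intermediate cells was at 107 CPM and its log2 ratio to ECs was 2.79. With equal weights Flt1 in Tie2-GFP ECs was at 2021 CPM and Tie1 at 204 CPM. Without ECs of 2 or more mural markers the Nrp1 log2 ratio of ECs to mural cells was -1.61, and with all 3 contractile genes against none it was -1.90 between mural cells. Thinned to 2000 UMIs, ECs with all 4 receptors made up 5.54% and 4.55%. The causes were not tested. The counts of members past 4-fold stayed within 1.5 times under each alternative. No paired analysis was possible because the result comes from no test and each line is 1 library.

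Depth limits what can be said of the scarce genes. Over the 95 mural cells a level below 9.26 CPM could be missed, and over the 26 marginal cells one below 8.71 CPM. Angpt1 rests on 22 UMIs in the 6 profiles.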
